A study of Mus musculus with 16 samples.

Results

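The surface ectoderm of the facial prominences was compared with the underlying mesenchyme in wild-type C57BL/6 mouse embryos at embryonic day 12. The facial prominences are swellings of the embryonic head whose growth and fusion make the face. The comparison rests on a deposited table of TPM, a transcript abundance scaled for the depth of a library and for transcript length. The table gives 1 value for each group of 4 libraries, so no difference below has a replicate check, an error or a test. Each library was made from a pool of 6 to 7 embryos whose layers had been parted by surgery. The 8 wild-type libraries are described here, out of 16 in the study. The remaining libraries came from embryos homozygous for a knockout of Esrp1, a splicing regulator of epithelial cells, and were not used here. Of 30286 gene symbols in the table, 14242 had a mean of at least 1 TPM over both layers and are called measured below. At the edge of this filter lay Prrt1 (0.55 TPM in ectoderm and 1.45 in mesenchyme) and Ifih1 (1.13 and 0.87), which were kept. Ifit1 (1.71 and 0.28) and Lingo2 (0.64 and 1.35) fell just outside.

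The facial ectoderm is a thin sheet of epithelial cells held together by junctions and resting on a basement membrane. The mesenchyme is a loose tissue, mostly of neural crest origin, that carries vessels and muscle precursors of mesodermal origin and later forms the bones and connective tissue of the face. Growth of the prominences depends on signals that pass between these layers in both directions, and loss of several of them is a known cause of cleft lip or palate in mice.

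Levels below are TPM in ectoderm followed by TPM in mesenchyme unless stated otherwise. Layer differences are log2 ratios of ectoderm over mesenchyme after 1 TPM was added to each value, which understates the difference of genes at low levels. A gene was called higher in a layer at 2-fold or more on that scale. By this call 981 genes were higher in ectoderm (6.89% of genes measured) and 1718 in mesenchyme (12.1%). At 8-fold or more the counts were 193 (1.36%) and 206 (1.45%). The remaining 81.05% of genes were within 2-fold, and their centre lay slightly towards mesenchyme, with a median of -0.14 over the 14242 genes. Among the 12 most abundant genes on the ectoderm side were the growth factor binding proteins Igfbp5 and Igfbp2, the calcium-binding protein S100a11 (1143 and 338) and the fatty acid carrier Fabp5 (521 and 247). Gm28437 and Rps12l1, also among them, resemble other genes and their values are uncertain. On the mesenchyme side the list held globins, cytoskeletal genes such as Actb (1212 and 2797) and Vim, and the galectin Lgals1 (83.01 and 1282). The genes higher in ectoderm made up 4.69% of the ectoderm's TPM over genes measured and 0.961% of the mesenchyme's. The genes higher in mesenchyme made up 8.65% of the mesenchyme's TPM and 2.34% of the ectoderm's. In dissected tissue a low level can mean fewer cells of a type or less RNA in each cell, and these cannot be told apart.

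The 7 defining markers followed the labels of the layers. On the ectoderm side stood the basal keratins Krt5 (702 and 2.22 TPM; chr15:101707070-101712898, GRCm38) and Krt14 (524 and 2.43; chr11:100203162-100207548), the epithelial cadherin Cdh1 (190.4 and 1.23) and Esrp1 (170.02 and 1.01; chr4:11331933-11386783). On the mesenchyme side stood the homeobox factor Prrx1 (9.22 and 293; chr1:163245119-163313710), the receptor Pdgfra (4.47 and 126; chr5:75152292-75198215) and the fibrillar collagen Col3a1 (30.98 and 806; chr1:45311538-45349706). The level of a layer's markers in the other layer was not symmetric. The 10 surface ectoderm markers were found in mesenchyme at a median of 0.597% of their ectoderm level, with a range of 0.206% to 2.20%. The 10 mesenchyme markers were found in ectoderm at a median of 3.86% of their mesenchyme level, with a range of 2.98% to 5.60%. Over all genes at 20 TPM or more in one layer and at least 8-fold lower in the other the difference was smaller, with medians of 2.83% for ectoderm genes in mesenchyme and 4.78% for the reverse. In mesenchyme 36 of 136 such ectoderm genes were under 1% of their ectoderm level, while 0 of 164 such mesenchyme genes were under 1% in ectoderm, where the lowest was at 1.83%. Whether mesenchyme cells left on the ectoderm or expression by ectoderm cells gave these levels was not tested.

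**Figure D1:**
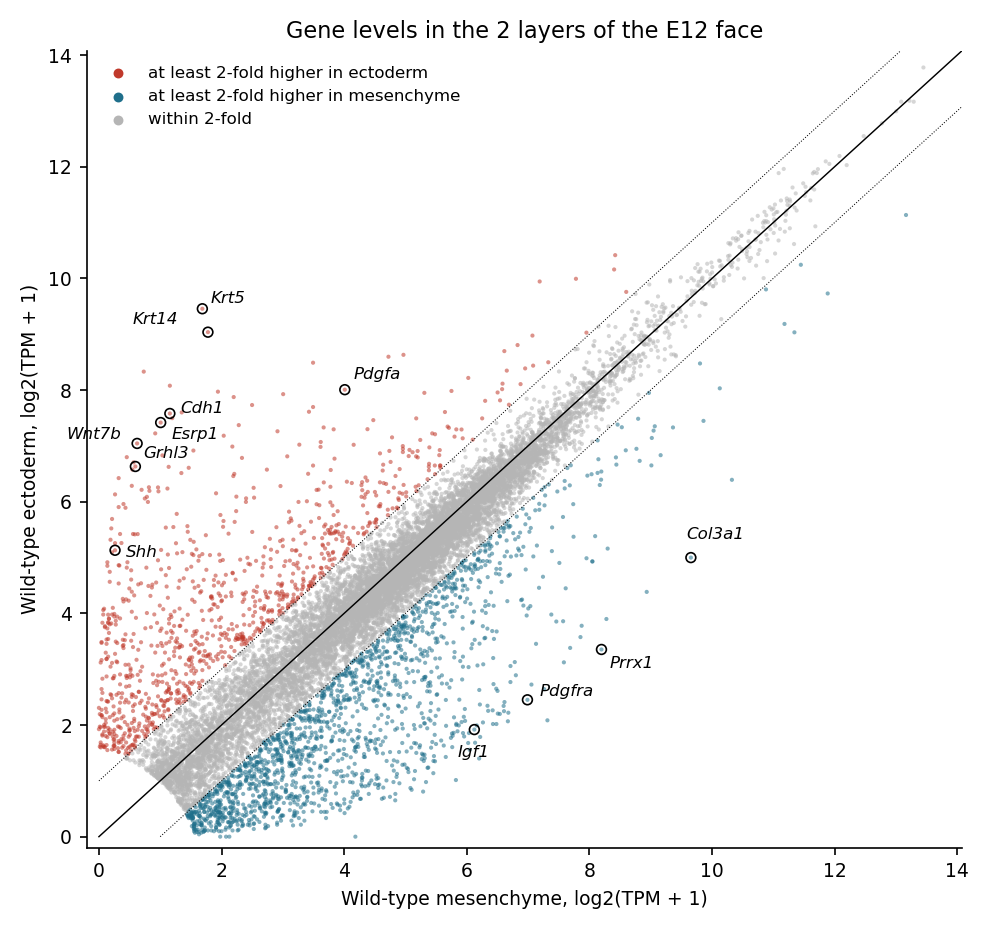
Level of each of the 14242 genes measured in wild-type mesenchyme (horizontal axis) and ectoderm (vertical axis), both as log2(TPM + 1), with the diagonal and the 2-fold lines drawn. Krt5, Krt14, Cdh1 and Esrp1 sit at the far left with little mesenchyme signal, while Prrx1, Pdgfra and Col3a1 keep visible ectoderm values.

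Genes at 5 TPM or more in ectoderm and at most 0.1 TPM in mesenchyme numbered 21, against 1 gene in the opposite direction, which was a predicted gene model. Among the 21 were the forkhead factors Foxa1 (15.9 and 0.06 TPM), Foxe1 (13.2 and 0.04) and Foxi3 (10.6 and 0.09), the epidermal repressor Ovol2 (8.82 and 0.08) and the epidermal differentiation factor Zfp750 (29.2 and 0.1). The Wnt ligands Wnt7a, Wnt3a and Wnt10a belonged to the same set. Structural and secreted products in it were the keratin Krt6a (14.8 and 0.05), the claudin Cldn8 (15.7 and 0.05), the Fgf carrier Fgfbp1 (12.7 and 0.07) and the serpin Serpinb5 (9.96 and 0.09). These genes were chosen after their values were seen, and Krt6a has a near-identical copy with which its reads may be confused.

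Of 401 measured transcription factors in 31 families, 71 (17.7%) were higher in ectoderm and 125 (31.2%) in mesenchyme, against 6.89% and 12.1% of all genes. In ectoderm the list of epithelial regulators had 20 of 23 members higher, 0 lower and a median log2 ratio of 2.86. Trp63, the master regulator of stratified epithelium, was at 193 and 1.55 TPM and its relative Trp73 at 22.2 and 0.25. Grainyhead factors, which drive epithelial junction and barrier genes, were led by Grhl3 (98.1 and 0.51) and Grhl2 (72.3 and 0.77). Below these came Klf5 (27.1 and 1.21), Elf5 (21.9 and 0.83) and the Ap2 factors Tfap2a (73.4 and 10.98) and Tfap2c (42.5 and 14.8). In the group of Fos, Jun, Atf, Creb, Maf and Cebp factors 8 of 35 members were higher in ectoderm and 3 in mesenchyme. Those higher in ectoderm included Junb at 15.5 and 2.2, Fos at 81.1 and 15.5 and Atf3 at 8.27 and 1.87. Members of the epithelial list within 2-fold were Rxra, Klf4 (17.02 and 19.1) and Gata3 (9.7 and 11.2).

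Factors known from sensory placodes and the oral lining were divided. In the list of nasal and olfactory ectoderm 8 of 14 measured members were higher in ectoderm and 4 in mesenchyme, among the latter Emx2 (2.62 and 20.5 TPM) and Ebf2 (2.16 and 17.7), and the median of 1.30 turned to -0.46 at a mean of at least 5 TPM. Sox2 was at 46.3 and 1.72 TPM, Otx1 at 29.2 and 0.38, Otx2 at 11.6 and 1.15, Six3 at 6.9 and 0.43 and the eye and nasal factor Pax6 at 6.5 and 0.84. Isl1, a LIM homeobox factor of neurons and of facial epithelium, was at 60.01 and 13.01 TPM, whereas the neuron genes Nefl (0.6 and 18.3) and Nefm (0.89 and 20.04) were higher in mesenchyme. Of 8 measured factors of pharyngeal endoderm and its glands 5 were higher in ectoderm and 3 in mesenchyme. In ectoderm were Foxa2 at 7.96 and 0.03, Nkx2-3 at 13.99 and 0.12 and Tbx1 at 20.02 and 6.92. In mesenchyme were the thymus and skeletal factor Pax1 (6.79 and 35.9), Hhex (0.2 and 2.82) and Sox17 (0.12 and 2.76). Sox17 is also among the listed blood endothelium markers.

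In mesenchyme the list of patterning factors of the face had 31 of 36 members higher and a median log2 ratio of -2.82. Mab21l2, a regulator of craniofacial and eye growth, had the lowest ratio of these at -5.23 (3.24 and 158 TPM). The Aristaless-like factors of the upper face followed, with Alx1 at 3.59 and 92.03 and Alx4 at 5.82 and 104. Lhx6 (0.97 and 39.4) and Lhx8 (1.2 and 42.9), which mark the oral side of the jaw mesenchyme, differed as widely. So did Osr1 (2.2 and 64.05), Shox2 (1.55 and 43.7) of the palate and Hand2 (0.79 and 33.3) of the lower jaw. Palate factors Osr2 (6.04 and 59.8) and Tbx22 (0.7 and 20.1) were also on the mesenchyme side. The list of factors that keep cells mesenchymal had 14 of 17 members higher in mesenchyme, with Twist1 at 7.71 and 191, Twist2 at 2.63 and 54.2 and Prrx2 at 9.42 and 205.

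Within some families different paralogs were higher in each layer. In 19 of 31 families at least 1 member was 2-fold higher in each layer. Several of these families are broad groups, such as bHLH with 52 members measured, and large groups reach this count more easily. Of all 401 factors 17.7% were higher in ectoderm and 31.2% in mesenchyme. In the distal-less family Dlx2 (42.8 and 13.5 TPM) and Dlx3 (62.8 and 8.55) were higher in ectoderm, and Dlx1 (23.5 and 66.3), Dlx5 (6.23 and 45.8) and Dlx6 (5.7 and 47.3) in mesenchyme. Dlx1 and Dlx2 are neighbours on chromosome 2 (chr2:71528113-71533981 and chr2:71543408-71546754) and differed in opposite directions. Of the Msx factors, targets of Bmp signals, Msx2 was higher in ectoderm (45.3 and 16.8) and Msx1 in mesenchyme (74.5 and 193). Barx2 (38.9 and 1.81) and Barx1 (9.99 and 72.95) were divided in the same way. Among forkhead factors Foxa1 and Foxe1 stood opposite Foxf1 (0.6 and 18.2), Foxf2 (0.87 and 19.3) and Foxd1 (0.94 and 13.7). Meis2, a cofactor of homeobox proteins, was abundant in both layers and higher in ectoderm (258 and 94.5), as were Dlx2 and Msx2 of the same patterning list.

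Repressors that act for or against the epithelial state were split between the layers. Ovol1 (18.2 and 0.31 TPM) and Ovol2 were in ectoderm, and Zeb1 (1.54 and 28.2), Zeb2 (3.4 and 54.4) and Snai1 (8.26 and 54.5) in mesenchyme. Snai2 was the exception, at 30.1 and 47.6, within 2-fold. Zeb and Snail proteins are known to bind the E-box CACCTG, which reads CAGGTG on the other strand, in promoters of epithelial genes. The letters were looked for on both strands in the 250 bases before each transcript start, in the RefSeq promoter table for GRCm38.p6. This E-box was chosen after values were seen. The search covered all 10 E-boxes of the form CANNTG and 5 other motifs, and a match to one E-box is never a match to another at the same bases. Of 193 genes at least 8-fold higher in ectoderm 120 had an entry in the table (62.2%), and of 206 at least 8-fold higher in mesenchyme 142 had one (68.9%). Since under 80% of each class had an entry, the search is void as a statement on the whole classes and describes the promoters found. Those of Krt5, Epcam, Cldn4 and Grhl3 are printed because they hold the E-box, which is in capitals, and those of Pdgfra and Col3a1 as mesenchyme promoters without it.
Krt5: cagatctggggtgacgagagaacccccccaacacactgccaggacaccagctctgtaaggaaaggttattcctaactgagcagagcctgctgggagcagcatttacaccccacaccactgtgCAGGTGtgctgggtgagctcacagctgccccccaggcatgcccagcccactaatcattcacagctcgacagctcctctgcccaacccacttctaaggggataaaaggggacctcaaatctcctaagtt
Epcam: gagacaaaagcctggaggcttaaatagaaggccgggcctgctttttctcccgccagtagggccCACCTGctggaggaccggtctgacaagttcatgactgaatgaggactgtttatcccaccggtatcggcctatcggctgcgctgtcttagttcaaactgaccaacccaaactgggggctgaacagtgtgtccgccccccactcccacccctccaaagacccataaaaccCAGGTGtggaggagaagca
Cldn4: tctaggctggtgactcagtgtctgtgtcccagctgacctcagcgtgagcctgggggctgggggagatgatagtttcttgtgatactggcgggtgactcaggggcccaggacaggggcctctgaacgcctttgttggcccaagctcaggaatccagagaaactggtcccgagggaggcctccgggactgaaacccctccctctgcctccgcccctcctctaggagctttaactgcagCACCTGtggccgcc
Grhl3: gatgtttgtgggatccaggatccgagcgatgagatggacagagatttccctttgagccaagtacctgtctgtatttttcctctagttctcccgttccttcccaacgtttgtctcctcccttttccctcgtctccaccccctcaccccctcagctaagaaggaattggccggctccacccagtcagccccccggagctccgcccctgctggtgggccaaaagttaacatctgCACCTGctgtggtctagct
Pdgfra: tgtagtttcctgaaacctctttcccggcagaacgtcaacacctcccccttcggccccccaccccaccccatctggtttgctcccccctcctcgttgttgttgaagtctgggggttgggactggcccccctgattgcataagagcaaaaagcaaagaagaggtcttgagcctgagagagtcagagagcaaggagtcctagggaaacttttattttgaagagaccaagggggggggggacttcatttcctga
Col3a1: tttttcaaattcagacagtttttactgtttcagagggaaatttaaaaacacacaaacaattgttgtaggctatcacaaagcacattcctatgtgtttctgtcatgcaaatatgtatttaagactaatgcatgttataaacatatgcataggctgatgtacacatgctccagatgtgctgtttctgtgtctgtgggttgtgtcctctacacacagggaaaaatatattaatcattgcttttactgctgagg
The windows, in GRCm38.p6, are chr15:101712906-101713155, minus strand for Krt5, chr17:87635729-87635978, plus strand for Epcam, chr5:134946935-134947184, minus strand for Cldn4, chr4:135573633-135573882, minus strand for Grhl3, chr5:75152001-75152250, plus strand for Pdgfra and chr1:45311288-45311537, plus strand for Col3a1. None of the 6 windows overlaps an exon of GENCODE M21. The E-box begins 128 bases before the start in Krt5, 187 and 19 bases in Epcam, 14 bases in Cldn4 and 19 bases in Grhl3.

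The share of promoters with CACCTG was highest in the top ectoderm class and lowest in the top mesenchyme class. It was 36.1% (52 of 144 promoters) in genes at least 8-fold higher in ectoderm and 25.3% (193 of 762) in those 2-fold to 8-fold higher. Within 2-fold it was 15.3% (1674 of 10951). On the mesenchyme side it was 14.8% (213 of 1437) at 2-fold to 8-fold, near the share within 2-fold. At 8-fold or more it was 7.22% (13 of 180). With only the table's starts within 100 bases of the GENCODE gene start (8210 of 13474 promoters), an alternative chosen after seeing the data, these shares were 35.4%, 23.97%, 14.4%, 14.5% and 7.41%. All 32851 promoters of the table held it in 17.2% and the 13474 promoters of genes measured in 15.9%. Mean GC content of the windows was 61.2% in the first of these classes, 60.0% within 2-fold and 57.5% in the last. In the genes at least 8-fold higher in ectoderm matches were densest near the start, with 16.7 per 100 promoters between 100 and 50 bases before it and 13.9 in the last 50 bases. Over all genes measured those densities were 3.79 and 2.39. Counted by gene, 18.7% of genes measured that had an entry held it in any of their promoters. By list, 7 of 10 polarity genes held it, 4 of 5 keratins, 6 of 15 tight junction genes and 6 of 12 Wnt ligands, and 0 of 7 mesenchyme markers, 0 of 12 matrix glycoproteins and 0 of 14 proteoglycan genes did. The lists did not all follow their layer: 4 of 6 adhesion genes of mesenchyme and vessels held it, but 3 of 12 epithelial transcription factors and 0 of 8 genes of nasal and olfactory ectoderm. Of other letters searched, some went the other way. The motif TATAAA was at 5.56% in the top ectoderm class and 16.7% in the top mesenchyme class, the E-box CAGATG at 7.64% and 18.9% and the E-box CAAATG at 6.25% and 13.9%. In the whole table these 3 were at 12.4%, 14.4% and 11.99%. TGANTCA, the letters of Ap1 sites, was at 11.8% and 6.11%, and AACCNGTT, the letters of Grainyhead sites, at 5.56% and 1.11%, with 4.28% and 1.61% over genes measured and 6.75% and 1.79% in the whole table. A match describes the letters of a window and not binding.

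**Figure D2:**
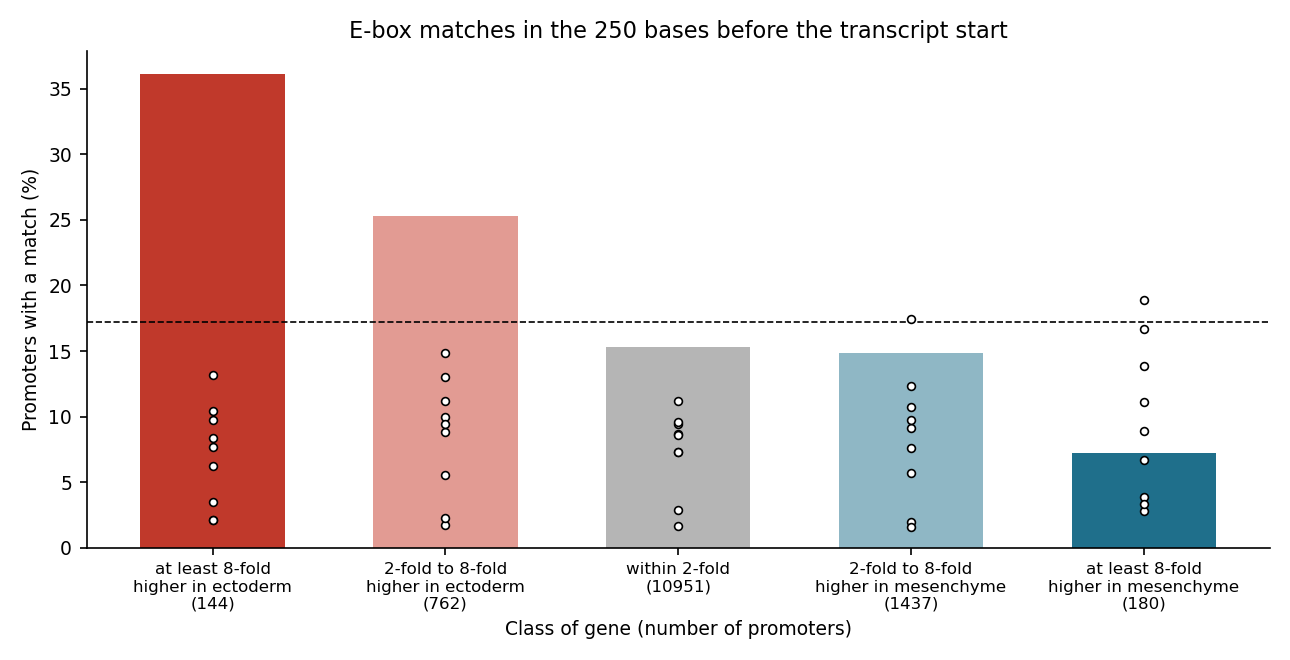
Share of promoters that hold the E-box bound by Zeb and Snail factors (bars, in percent) in 5 classes of genes by layer ratio, with the number of promoters under each bar. The E-box was chosen after values were seen. Open circles are the 9 other E-boxes in the same promoters and the dashed line is the share of all promoters in the table (17.2%); the bars go from 36.1% at the ectoderm end to 7.22% at the mesenchyme end.

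Signals were sorted by role, and Wnt ligands formed the largest ectoderm group. These lipid-modified proteins act over short distances through Frizzled receptors. Of 15 measured ligands 9 were higher in ectoderm, 3 in mesenchyme, and the median log2 ratio was 3.43. Wnt7b (131 and 0.54 TPM), Wnt6 (103 and 0.48) and Wnt4 (90.4 and 1.54) led in level, and Wnt3 (44.9 and 0.15) and Wnt9b (50.7 and 0.16), both required for the lip, lie side by side in the genome. Wnt5a, which acts mainly outside the beta-catenin pathway, was the abundant mesenchyme ligand at 33.7 and 167, and its receptors Ror2 (5.8 and 41.3) and Ror1 (4.43 and 21.2) were in the same layer. Receptors as a group were not one-sided, with 7 higher in ectoderm, 5 in mesenchyme and 9 within 2-fold, and a median of -0.14 that turned positive after quantile normalization or correction for GC content.

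Secreted regulators of Wnt signals lay mostly on the opposite side to the ligands. Of 14, 10 were higher in mesenchyme. The decoy receptor Frzb was at 1.64 and 72.6 TPM, Sfrp2 at 24.2 and 151, Dkk1 at 1.56 and 24.9 and the R-spondins Rspo2 and Rspo3, which stabilise Wnt receptors, at 1.23 and 32.1 and 0.94 and 20.3. The ectoderm had its own inhibitors in Dkk4 (16.1 and 0.17), Sostdc1 (100.4 and 23.9) and the Wnt deacylase Notum (20.2 and 4.76). The membrane proteins that remove Frizzled receptors, Rnf43 (54.02 and 1.41) and Znrf3 (33.98 and 8.33), and the R-spondin receptors Lgr4 (60.1 and 18.8) and Lgr6 (18.9 and 0.79) were also ectodermal. Feedback targets were divided, with the Dkk coreceptor Kremen2 in ectoderm (87.02 and 3.57), Nkd1 (8.47 and 40.01) and Nkd2 (3 and 34.2) in mesenchyme, and Axin2 at 25.7 and 52, just within 2-fold.

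Hedgehog and Fgf ligands showed a similar division. Shh was at 34.03 and 0.2 TPM, while its transducer Smo (97.1 and 113) and targets Gli1 (52.6 and 72.3) and Ptch1 (48.3 and 37.5) were present in both layers within 2-fold. The coreceptor Gas1 was higher in mesenchyme (29.6 and 76). Fgf8 (26.3 and 0.44) and Fgf9 (25.3 and 3.54) were ectoderm ligands. Fgf10 (1.3 and 12.1), Fgf18 (0.7 and 7.84) and Fgf7 (0.35 and 2.91) were mesenchyme ligands. The receptors were divided as well: Fgfr1 in mesenchyme (90.5 and 279.9), Fgfr2 (447 and 113) and Fgfr3 (42.1 and 11.9) in ectoderm. Fgf9 is a ligand of all these receptors, so it faced Fgfr1 but shared its layer with Fgfr2 and Fgfr3. Fgfr2 was among the 12 most abundant genes on the ectoderm side, and values per gene do not separate its splice forms.

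Tgf-beta genes and the Bmp and Gdf ligands leaned towards mesenchyme. Of 11 Bmp and Gdf ligands 1 was higher in ectoderm, 4 in mesenchyme and 6 within 2-fold. Their median log2 ratio was -0.77. Of 20 Bmp receptors, antagonists and targets 2 were higher in ectoderm, 4 in mesenchyme and 14 within 2-fold, beside 81.05% of all genes within 2-fold. The median of these 20 was -0.18, beside -0.14 over all genes. Bmp4 was at 20.3 and 60.1 TPM and Bmp7 at 77.8 and 30.3, so these ligands, both active in lip and palate growth, differed in opposite directions. The type I receptor Bmpr1a was even between the layers (73.7 and 74.3), and the immediate target genes were split, with Id1 (155 and 83.6) and Id3 (209.8 and 229) within 2-fold and Id4 higher in ectoderm (25.2 and 7.98). Tgfb2 (15.1 and 42.1), Tgfb3 (4.09 and 28.4), their receptor Tgfbr2 (4.44 and 22.4) and the induced matrix protein Tgfbi (9.96 and 139) were higher in mesenchyme. Of 14 members of the Tgf-beta and activin pathway 7 were higher in mesenchyme and 1 in ectoderm. Over all genes the shares were 12.1% and 6.89%.

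Growth factor systems included Pdgf, with ligands and receptor in facing layers. Pdgfa (256 and 15.1 TPM) and Pdgfc (179 and 35.1) were ectodermal, and their receptor Pdgfra was at 4.47 and 126. Igf1 was mesenchymal (2.78 and 68.7), whereas Igf2 was very abundant in both layers (1272 and 1120.1). The binding proteins that hold these ligands were divided, Igfbp2 (985 and 145) and Igfbp5 (1018 and 219) in ectoderm and Igfbp4 (162 and 536) and Igfbp3 (22.7 and 93.9) in mesenchyme. Chemokines gave one gene to each layer, Cxcl14 to ectoderm (503 and 134) and Cxcl12 to mesenchyme (13.5 and 189). Vegfa, the main vessel growth factor, was equal (101 and 102), with its receptor Kdr in mesenchyme (0.64 and 25.9).

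In the Notch and retinoic acid pathways different genes of the same step were higher in each layer. In ectoderm were the Notch ligand Jag2 (67.2 and 3.73 TPM), the receptor Notch1 (75.2 and 27.1) and the targets Hes1 (104 and 26.1) and Nrarp (28.7 and 5.44). In mesenchyme were Notch2 (15.3 and 35.9), the vessel genes Dll4 (0.44 and 5.95) and Notch4 (0.86 and 9.19), and the target Hey2 (3.09 and 38.6). Retinoic acid is made by Aldh1a enzymes and destroyed by Cyp26 enzymes, and each layer had its own of both. Aldh1a2 (2.21 and 69.3) and Cyp26b1 (2.1 and 48.3) were mesenchymal, with the carriers Crabp1 (113 and 572) and Crabp2 (122 and 435). Aldh1a3 was at 17.1 and 8.14, just within 2-fold, and Aldh1a1 (3.3 and 0.23), Cyp26a1 (19.5 and 2.87) and Cyp26c1 (15.3 and 0.45) were ectodermal. Endothelin signalling to the crest had its receptor Ednra in mesenchyme (2.7 and 56.6) and the activating enzyme Ece1 higher in ectoderm (101 and 40.8).

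Among 89 known ligand and receptor pairs 84 had both genes measured. Of the 68 ligands in these pairs 19 were higher in ectoderm and 26 in mesenchyme, and of 72 receptors 16 and 31. Over all genes the shares were 6.89% and 12.1%. In 9 pairs the ligand was higher in ectoderm and the receptor in mesenchyme. These were Wnt3 with Fzd2 (28.1 and 78.01 TPM), Shh with Gas1, Fgf8 and Fgf9 with Fgfr1, Pdgfa and Pdgfc with Pdgfra, Sema3e (4.41 and 1.03) with Plxnd1 (3.06 and 43.4), Sema3c (28.6 and 4.42) with Nrp1 (1.58 and 27.1), and Npnt (108 and 13.3) with Itga8 (0.73 and 16.7). In 7 pairs the direction was the opposite. These were Rspo3 with Lgr4, Rspo2 with Lgr6, Fgf10 and Fgf7 with Fgfr2, Fgf18 with Fgfr3, Inhba (0.78 and 7.27) with Acvr2a (42.4 and 17.7), and Hgf (0.65 and 3.11) with Met (11.3 and 3.95). Both genes were higher in ectoderm in 8 pairs, among them Fgf9 with Fgfr2 and with Fgfr3, and in mesenchyme in 15. Several pairs share a gene, so they are not separate observations.

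**Figure D3:**
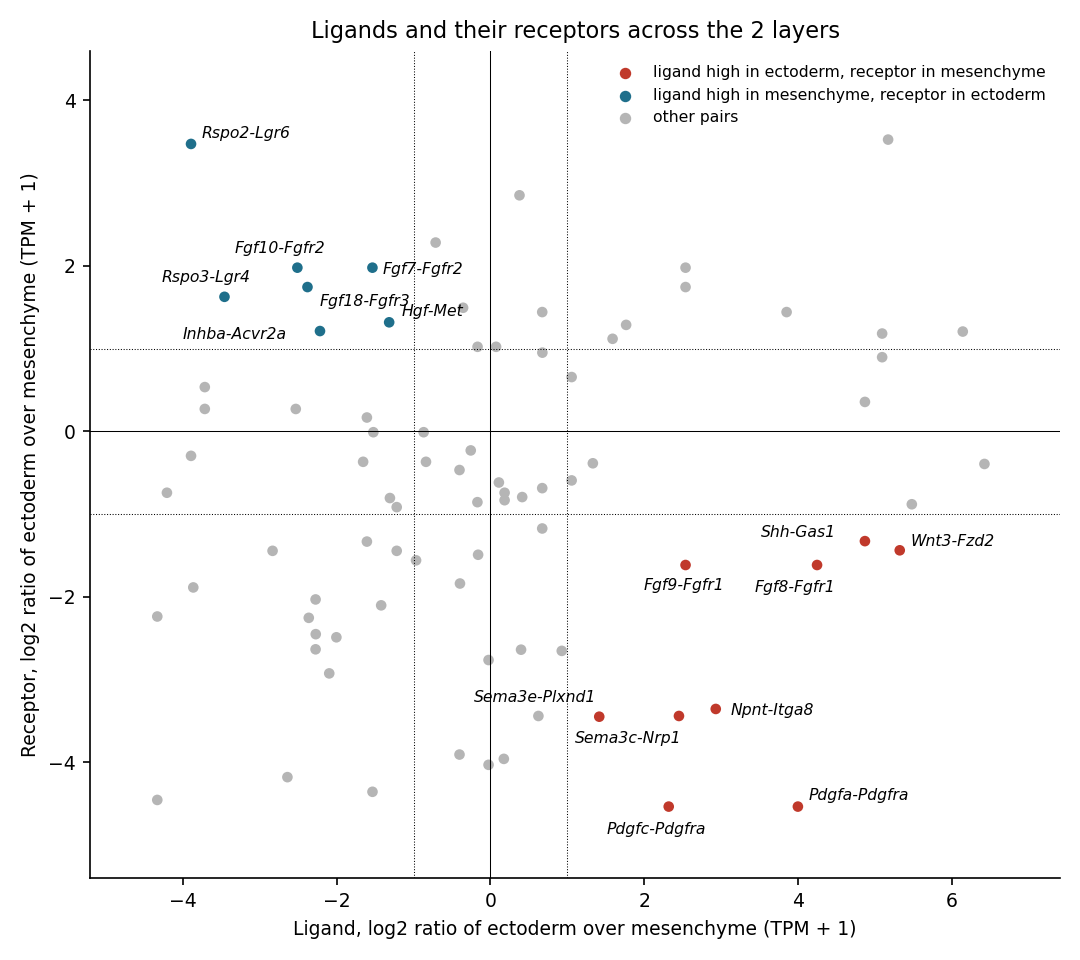
Log2 layer ratio of the ligand (horizontal axis) and of its receptor (vertical axis) in 84 pairs, both of ectoderm over mesenchyme on the TPM + 1 scale, with dotted lines at 2-fold. The 9 pairs with an ectoderm ligand and a mesenchyme receptor lie at lower right, and the 7 pairs of the opposite kind at upper left.

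Adhesion genes were mostly higher in ectoderm. All 10 listed keratins that were measured were higher in ectoderm, with a median log2 ratio of 5.30. Besides the basal pair they included Krt15 (321 and 0.66 TPM) and the simple-epithelium keratins Krt8 (144 and 3.1), Krt18 (152 and 6.53) and Krt19 (75.6 and 0.76). Desmosomes, which tie keratins of neighbouring cells together, had 16 of 19 members higher in ectoderm. Desmoplakin (Dsp) was at 179.7 and 1.29, the desmosomal protein Perp at 269 and 1.23, the plakophilins Pkp3 and Pkp1 at 67 and 0.72 and 37.3 and 0.2, and the cadherins Dsg2 and Dsc2 at 45.7 and 1.32 and 41.8 and 0.55. Late epidermal cadherins were low, with Dsg3 at 2.69 and 0.06 and Dsg1a, one of several near-identical copies, at 2.06 and 0.01.

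Tight junction genes had 15 of 20 members higher in ectoderm and a median of 3.01. Claudins, the strand-forming proteins, were led by Cldn6 (234 and 3.59 TPM), Cldn4 (149 and 0.89) and Cldn7 (96.5 and 1.76), and the exceptions were Cldn5 of vessels (0.36 and 12.1) and Cldn11 (1.42 and 11.2). The scaffold Tjp1 was even (54.7 and 55.8). Surface molecules of epithelium included Epcam (212 and 4.65), the nectin Nectin4 (58.4 and 0.35), and the protease St14 (62.8 and 0.74) beside its inhibitor Spint1 (65.6 and 0.68). In the polarity list Llgl2 (31.6 and 2.11), Crb3 (15.1 and 0.72) and the planar polarity cadherin Celsr1 (29.8 and 2.08) were ectodermal. Prickle1 (5.48 and 40.3), of the same planar pathway, was mesenchymal, and Vangl2 was even (36.02 and 35.5). Gap junction genes were split by subfamily, Gjb2 (110.3 and 0.37) and Gjb6 (69.1 and 0.2) in ectoderm and the vessel connexins Gja4 (0.89 and 10.96) and Gja5 (0.63 and 9.53) in mesenchyme, with Gja1 within 2-fold (138 and 193).

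Classical cadherins showed the known switch between the tissue types. Cdh1 and the placental cadherin Cdh3 (133 and 11.3 TPM) were in ectoderm. Cdh11 (12.7 and 234), the cadherin of loose connective tissue, Cdh2 (10.7 and 77.2) and the vessel cadherin Cdh5 (1.02 and 55.6) were in mesenchyme. The catenins Ctnnb1 (1221 and 869) and Ctnna1 (191 and 150.1), which link them to actin, were within 2-fold. Of the other listed catenins Ctnnd2 was higher in ectoderm (17.96 and 1.87) and Ctnna2 in mesenchyme (1.66 and 12.7). Jup, a catenin outside this list, was also higher in ectoderm (122 and 30.1). Intermediate filaments outside the keratins followed the mesenchyme, with Vim at 174 and 929.6.

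**Figure D4:**
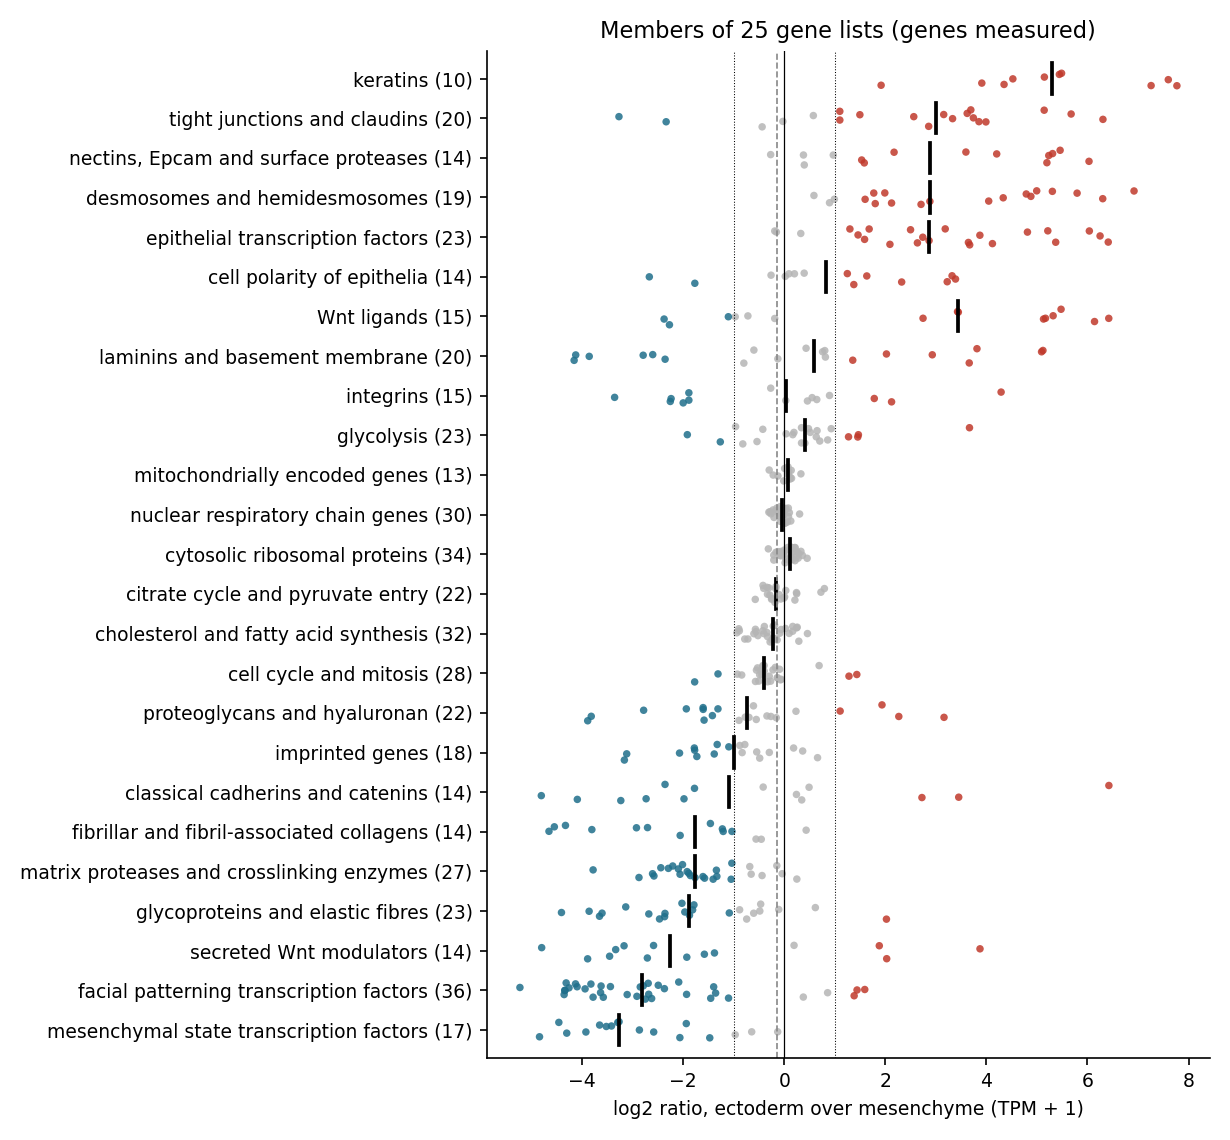
Log2 ratio of ectoderm over mesenchyme (TPM + 1) for each measured member of 25 gene lists, with the number of members in brackets and a bar at the median of each list. Dotted lines mark 2-fold and the dashed line the median of all genes (-0.14); keratins and junction lists lie to the right, matrix and patterning lists to the left, and lists of ribosomal and respiratory genes within 2-fold.

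Genes of the interstitial matrix were mostly higher in mesenchyme. Of 14 fibrillar and associated collagens 11 were higher there and 0 in ectoderm. Col3a1, Col1a2 (19.9 and 489 TPM) and Col1a1 (5.61 and 132) had the widest ratios, and all 3 chains of collagen VI were lower in ectoderm (Col6a1 3.05 and 88.5, Col6a2 3.19 and 101 and Col6a3 3.61 and 89.9). The cartilage collagen Col2a1 was an exception in degree, at 81.8 and 193, with a log2 ratio of -1.23. Glycoproteins of the space between cells included Fn1 (99.5 and 515), Postn (13.5 and 175), Tnc (3.15 and 59.4) and the elastic-fibre protein Emilin1 (3.05 and 85.1), and 15 of 23 were higher in mesenchyme. Enzymes that cut or crosslink matrix had 21 of 27 members higher in mesenchyme and 0 in ectoderm, with Lox at 1.1 and 27.9 and Mmp2 at 28.9 and 181.

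Genes of the basement membrane between the layers were divided. Laminin chains of the epithelium, Lama5 (165 and 3.86 TPM) and Lama3 (17.6 and 0.32), were in ectoderm, while Lama4 (1.35 and 40.1) and Lama2 (0.73 and 10.99), of vessels and muscle, were in mesenchyme. The shared chains Lamb1 (142 and 105) and Lamc1 (82.6 and 47) were within 2-fold. Nidogens, which join laminin to collagen IV, were higher in mesenchyme (Nid1 3.8 and 84.8, Nid2 2.3 and 46.9). Collagen IV was mixed, with Col4a1 (93.2 and 153) and Col4a2 (59.2 and 83.4) within 2-fold and the paired chains Col4a5 (30.9 and 9.87) and Col4a6 (8.05 and 1.21) higher in ectoderm. Ectoderm also held Agrn (346 and 135), Col18a1 (252 and 52.9), the hemidesmosome collagen Col17a1 (113 and 1.05) and the Fraser complex genes Fras1 (27.5 and 6.01) and Frem2 (65.7 and 4.28), whereas the related Frem1 was in mesenchyme (10.5 and 69.03).

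Integrins, the receptors for this matrix, had 3 of 15 members higher in ectoderm and 6 in mesenchyme. Over all genes the shares were 6.89% and 12.1%. Itga3 (89.4 and 3.62 TPM) and Itgb4 (43.4 and 9.19), which bind laminins, were higher in ectoderm. The fibronectin receptor Itga5 (13.2 and 66.99), Itga4 (2.09 and 11.4), the collagen receptor Itga11 (0.6 and 6.56) and the nephronectin receptor Itga8 were higher in mesenchyme. The common chain Itgb1 was even (142 and 171). Among proteoglycans Lum (5.11 and 89.6), Bgn (16.6 and 120.4) and Ogn (1.76 and 38) were mesenchymal. Fmod, a relative of Lum, stood on the other side at 21 and 1.46, and the hyaluronan synthases differed in opposite directions, Has3 in ectoderm (11.9 and 1.68) and Has2 in mesenchyme (4.59 and 16.01).

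Metabolic genes higher in ectoderm included glucose transporters. In the glycolysis list 4 of 23 genes were higher in ectoderm, 2 in mesenchyme and 17 within 2-fold, and the median log2 ratio was 0.41. Over all genes 6.89% were higher in ectoderm, 12.1% in mesenchyme and 81.05% within 2-fold. The glucose transporters Slc2a3 (159.9 and 11.7 TPM) and Slc2a1 (156 and 55.9), the kinase Pdk1 that closes pyruvate entry to mitochondria (71.3 and 25.4) and the hexokinase Hk2 (32.9 and 13.1) were higher in ectoderm. Hk1 was the mesenchyme's hexokinase (11.6 and 29.4). Later enzymes were smaller in difference, with Pgk1 at 559 and 343 and Ldha at 757 and 488, and Gapdh was even at 2525 and 2464. No gene was 2-fold apart among 22 of the citrate cycle, 30 nuclear and 13 mitochondrial genes of the respiratory chain, or 32 of cholesterol and fatty acid synthesis. Their medians were -0.17, -0.05, 0.08 and -0.23; the sign of the nuclear and mitochondrial respiratory medians changed with scaling or GC correction.

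Single genes of other metabolic lists differed more widely between the layers. The ceramide synthase Cers3, needed later for the skin barrier, was at 18.03 and 0.36 TPM, and the serine palmitoyltransferase chain Sptlc3 at 6.36 and 0.19. In the list of ceramide and epidermal lipid genes, 4 of 12 measured members were higher in ectoderm and 0 in mesenchyme. Over all genes the shares were 6.89% and 12.1%. Alox12b, Aloxe3, Abca12 and Cyp4f39, which act late in barrier formation, were under the filter. Gldc, which breaks down glycine to feed folate metabolism and is linked to neural tube closure, was at 14.7 and 1.25. The other 18 of 19 measured genes of serine, one-carbon and folate metabolism were within 2-fold. The carbonyl reductase Cbr2 was at 21.5 and 0.75 and the aldehyde dehydrogenase Aldh3b2 at 12.5 and 0.07. In mesenchyme the peroxidase Gpx3 was at 5.18 and 21.3 and the quinone reductase Nqo1 at 2.37 and 10.8. In the glutathione and detoxification list 3 of 22 genes were higher in each layer and 16 were within 2-fold. The share within 2-fold over all genes was 81.05%.

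Among 28 cell division genes 2 cyclins and 2 inhibitors were 2-fold apart. The other 24 were within 2-fold, a share near the 81.05% of all genes. The median was -0.40, and the division marker Mki67 was at 90.2 and 114 TPM. Ccnd2 was higher in ectoderm (334 and 123) and Ccnd1 in mesenchyme (51.2 and 129). The inhibitor Cdkn1a was higher in ectoderm (33.3 and 13.1) and the imprinted inhibitor Cdkn1c in mesenchyme (154 and 528). Imprinted genes were on the mesenchyme side in 9 of 18 cases and in ectoderm in 0, with a median of -0.99. Peg10 (20.8 and 195), Dlk1 (29.5 and 264), Peg3 (61.1 and 212) and Mest (355 and 894) were among them. Cytosolic ribosomal protein genes were all within 2-fold (34 genes, median 0.11).

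Splicing regulators included 2 higher in each layer. Esrp1 and its paralog Esrp2 (71.8 and 0.96 TPM) were higher in ectoderm, Rbms3 (14.5 and 30.2) and Rbm24 (0.98 and 5.43) in mesenchyme, and 16 of 20 were within 2-fold, a share near the 81.05% of all genes. Rbfox2 (54.9 and 91.2) and Qk (82.6 and 108), which favour mesenchymal splice forms, were within 2-fold, as was Ptbp1 (469 and 554).

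Minor cell types were read from their markers. Blood endothelium was on the mesenchyme side in all 22 of its markers, with a summed level of 33.9 TPM in ectoderm and 599.8 in mesenchyme. Its markers were found in ectoderm at a median of 4.45% of their mesenchyme level, beside 3.86% for the mesenchyme markers. Skeletal muscle precursors behaved alike, with all 21 measured markers higher in mesenchyme, a sum of 51.8 and 669 TPM and a median of 5.21%. Both the differentiation gene Myog (1.72 and 43.2) and contractile genes such as Actc1 (5.25 and 152) belonged to it, while Myf5 was near the floor of the filter (0.07 and 3). Platelet genes were led by Pf4 (2.18 and 35.1). Of 14 cartilage and bone markers 10 were higher in mesenchyme, among them the bone regulators Runx2 (10.1 and 44.2) and Sp7 (0.37 and 10.2). Another, Msx2, was higher in ectoderm, and 3 were within 2-fold. The median of this list in ectoderm was 26.6% of the mesenchyme level.

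Blood and nerve markers reached higher percentages in ectoderm than vessel markers. Globins of red cells were among the most abundant genes on the mesenchyme side, with Hbb-y at 2249.7 and 9188 TPM, Hba-a2 at 849 and 3789 and Hba-a1 at 523 and 2601. Hba-a1 and Hba-a2 are near-identical copies, so the split between them is uncertain. Globins made up 0.518% of the ectoderm column and 2.09% of the mesenchyme column. The median over 16 red cell markers was 23.8% of the mesenchyme level, and over 15 macrophage and leukocyte markers 27.6%. Tfrc, the transferrin receptor of dividing cells, was the red cell marker higher in ectoderm (65.8 and 28.5). Of 18 neuron markers 10 were higher in mesenchyme and 1, Isl1, in ectoderm, at a median of 32.2%. Their range was wide, from 2.92% to 461%. At a mean of at least 5 TPM the median log2 ratio of the neuron list went from -1.21 to -2.35. Schwann cell and pigment cell markers were split, with Sox10 (1.78 and 13.2) and Fabp7 (2.94 and 36.9) in mesenchyme and the pigment genes Pmel (5.11 and 1.16) and Dct (2.27 and 0.51) in ectoderm.

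**Figure D5:**
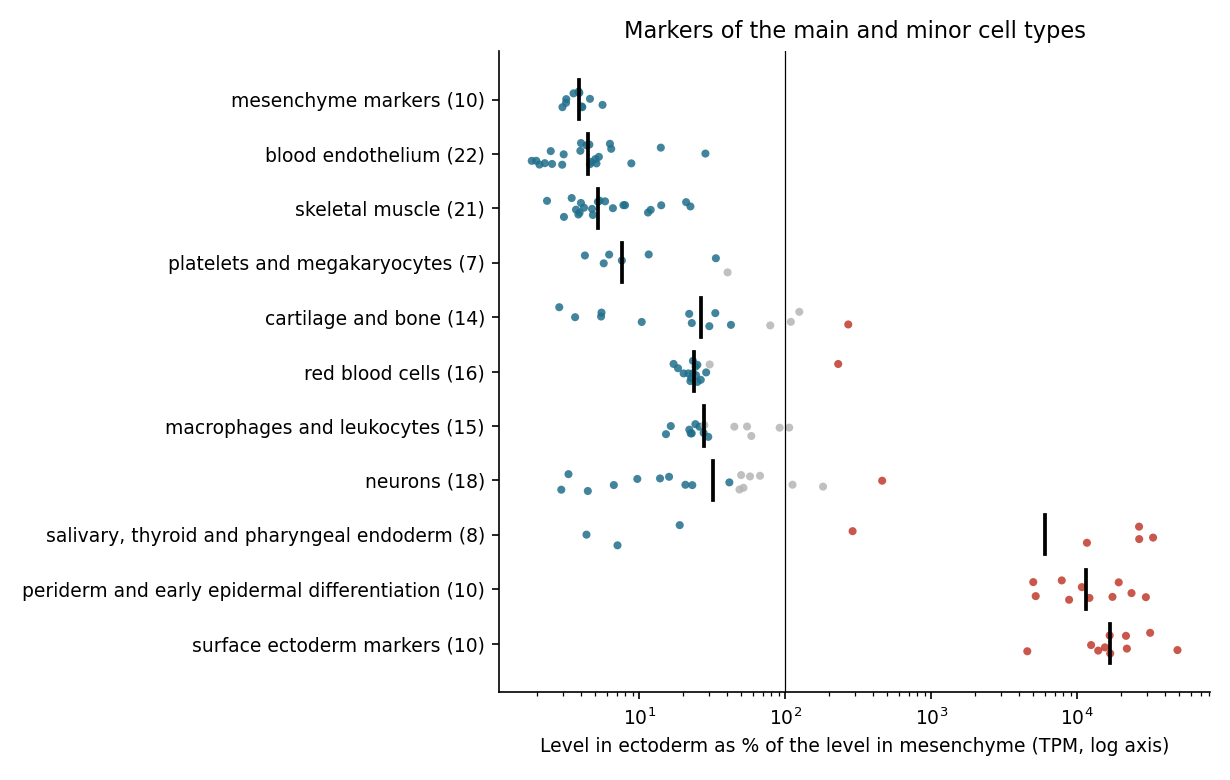
Level of each marker in ectoderm as a percentage of its level in mesenchyme (log axis) for 11 marker lists, with the number of genes in brackets and a bar at the median. The medians of mesenchyme, vessel and muscle markers are 3.86%, 4.45% and 5.21%, those of red cell and macrophage markers 23.8% and 27.6%, and all periderm and surface ectoderm markers lie far above the line of equal levels.

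Periderm, the outermost epithelial layer, is a flat covering that keeps facing epithelia from sticking together. Of 18 listed genes of periderm and early epidermal differentiation 10 were measured, and all were higher in ectoderm. Sfn, a cell cycle protein of epidermis, was at 249.96 and 2.84 TPM, the receptor subunit Gabrp at 58.9 and 0.25, Krt17 at 27.97 and 0.26, Rhov at 14.9 and 0.19 and the crosslinking enzyme Tgm1 at 14.03 and 0.27. Cornified envelope genes and the mucosal keratins Krt4 and Krt13 were under the filter.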

How the data were processed

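Messenger RNA was sequenced from 4 pools per layer, and the authors deposited TPM values (transcript abundance scaled for depth and length), 1 for each group. Per the submitters' processing notes the tools were STAR 2.5.2a and kallisto 0.43.0, with mm10 as the build. For the tool behind the TPM, the annotation, the strand setting and the combining of libraries, details were not given in the sources used here. Depth and counting error are unknown because TPM hold neither. Libraries were sorted into wild-type ectoderm and wild-type mesenchyme by their labels.

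A symbol in several rows (103 symbols) kept the row with the highest mean. A mean of 1 TPM or more was required of a gene, and log2 ratios used a pseudocount of 1 TPM. No test was possible with 1 value per group. Lists (70), families (57) and pairs (89) came from textbook knowledge, and the members and lists were chosen with earlier results of these data known. Genes named were the 7 markers, up to 4 members of a list in each direction with the widest ratio at 5 TPM or more, the 12 widest transcription factors and 12 most abundant genes per layer, the ends of each family, and pairs in facing layers. Other genes, named as members of a list, and the E-box were chosen after values were seen. Some genes that the rule names are not reported here. Positions and gene types come from GENCODE M21 on GRCm38, matched for 14125 of 14242 symbols (99.18%). Promoters come from RefSeq on GRCm38.p6 (250 bases before to 50 after the start, of which the 250 were searched), with an entry for 10459 of the genes measured (73.4%). The ratio and the motif search were tested on simulated data. Alternatives were pseudocounts of 0.1 and 5, no filter, a mean of at least 5 TPM, quantile normalization, rescaling without mitochondrial and globin genes, summed rows and a GC correction (lowess, fraction 0.3). Python 3.11.15, pandas 2.3.3 and statsmodels 0.14.6 were used.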

Additional observations from a re-analysis of the deposited data

How the results depend on the processing

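No paired analysis was possible because the table holds 1 value per group, and for the same reason no library could be left out in turn. With a pseudocount of 5 the genes at least 2-fold higher numbered 573 in ectoderm and 909 in mesenchyme, since a larger pseudocount shrinks ratios at low levels. With a mean of at least 5 TPM 1088 were higher in mesenchyme, since fewer genes were included. Quantile normalization shifted the median of all genes by 0.16 on the log2 scale and moved ectoderm's share of all calls from 36.35% to 45.69% (1171 and 1392 genes), and GC correction moved it to 44.96% (1142 and 1398). At a mean of at least 5 TPM 3 list medians changed sign, to -0.46 for nasal and olfactory ectoderm, 2.20 for lymphatic endothelium and -0.82 for neural progenitors, because members at low levels dropped out. Of 374 named genes that were at least 2-fold apart, 0 changed direction under any alternative in which they had a value (341 at a mean of at least 5 TPM, 367 with rescaling and all 374 in the others), and 38 came within 2-fold with a pseudocount of 5, 8 with GC correction, 6 with quantile normalization and 3 with rescaling. The columns add to 917993 TPM in ectoderm and 969156 in mesenchyme.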

Other observations

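Guidance cues, which steer nerves, vessels and crest cells, were not covered above as a group. Of 32 genes of semaphorins, plexins, Slit, Robo and netrins 6 were higher in ectoderm and 10 in mesenchyme. Of the 20 semaphorins measured 3 were higher in ectoderm and 8 in mesenchyme. The shares over all genes were 6.89% and 12.1%. Of class 3, Sema3d (55.96 and 3.72 TPM in ectoderm and mesenchyme) and Sema3c (28.6 and 4.42) were ectodermal. Sema3a (69.3 and 44.6) and Sema3f (208 and 158) were within 2-fold. The receptor Nrp2 was at 9.92 and 67.1. Slit3 (2.19 and 21.7) and its receptor Robo1 (29.4 and 81.96) were both higher in mesenchyme. Among Eph receptors Epha1 was ectodermal (48.8 and 3.64) and Epha3 mesenchymal (1.65 and 38.8). Of 19 genes of the ephrin system 3 were higher in ectoderm, 6 in mesenchyme and 10 within 2-fold. The share within 2-fold over all genes was 81.05%. The ectodysplasin receptor Edar (7.81 and 0.22) and its adaptor Edaradd (9.53 and 1.49), which act in placodes of teeth and hair, were ectodermal, and the ligand Eda was within 2-fold (6.56 and 4.82). The ErbB receptors Erbb3 (41.8 and 14.2) and Egfr (16.7 and 7.74) were higher in ectoderm, and Erbb2 was within 2-fold (63.3 and 34.8).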
